A study of Mus musculus with 461 samples.

Results

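Single mouse cells from day 7 of a reprogramming course were set against single cells from day 0 of the same course, both from the sets whose titles start with the prefix b2. The members were chosen by title alone: 65 cells of day 7 and 54 cells of day 0, 119 of the 461 cells of the series. All cells came from fibroblasts of OG2 transgenic mouse embryos, a strain in which a fluorescent protein reports on Oct4 (the Pou5f1 product), on a mixed background of 1/2 129SVJ, 3/8 C57B6 and 1/8 CBA. Per the labels, fibroblasts grew in medium with 10% FBS and cells under reprogramming in iCD1 medium, so day and medium cannot be told apart. The titles name the course 7F without naming the factors. The published cocktail of that name holds Jdp2, Kdm2b, Map2k6, Glis1, Nanog, Esrrb and Sall4. Transcripts of all of these but Glis1 stood above 300 CPM in the day 0 set of b2, as given below. Whether the cells of both groups carried the added factors was not tested. Vector and native transcripts of a factor cannot be told apart in these counts. RNA was captured cell by cell on the Fluidigm C1 system, a microfluidic chip that isolates single cells. What the prefixes b1, b2 and b3 stand for is not given in the labels, nor is the number of mice or cultures behind a set.

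Fibroblasts are mesenchymal cells that secrete collagens, hold on to them through integrins and pull on them with actin and myosin. Pluripotent cells instead form tight epithelial colonies joined by E-cadherin, divide fast, and keep a network of transcription factors around Pou5f1, Sox2 and Nanog active. Reprogramming takes cells from the first state to the second, with loss of the mesenchymal genes, gain of epithelial genes and activation of the network's own targets.

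Each of the 2 b2 sets is 1 sum of cells, and cells of a set are not replicates. The difference within b2 therefore has no replicate check of its own. Values within b2 are given as CPM, the counts of the summed set scaled per mega-count, or as the TPM of single cells, a relative transcript abundance that also divides by transcript length. The log2 ratio within b2 adds 0.5 CPM to both sides and so understates genes near 0. Changes were tested with edgeR's quasi-likelihood F test, two-sided and with Benjamini-Hochberg adjustment over 22378 genes. The test set the day 7 set against both day 0 sets (b1 with 20 cells and b2), with the spread between sets taken from days 0 and 3, each of which had 2 sets. Day 7 had 1 set of this size and was assumed to vary as those did. Rose and fell are used below for genes with an adjusted p under 0.05 whose ratio within b2 went the same way.

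Depth was alike in both groups. The day 0 cells of b2 held 0.881 to 5.926 M counts each (M, mega-counts) with a median of 3.306 M, and counts in 6346 to 10377 genes (median 7743). The day 7 cells held 1.008 to 6.999 M counts (median 3.178 M) and counts in 6429 to 11499 genes (median 8282). The day 0 sum came to 181.406 M counts and the day 7 sum to 208.883 M. The fibroblast label of day 0 was checked against defining markers: Col1a1, the main collagen of fibroblasts, was found in 53 of 54 cells, but Dcn, a small matrix proteoglycan, in 3 cells and Lum, a related proteoglycan, in none at a TPM of 1 or more. In the day 0 set of b1 Dcn was at 20.5 CPM, against 0.853 in b2.

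The 4 genes given as markers of the comparison differed in level between the days, and in each of them some cells of both days overlapped. Dppa5a, an RNA-binding protein of pluripotent cells, ran from 0 to 0.74 TPM in the 54 day 0 cells (median 0) and from 0 to 25400 TPM in the 65 day 7 cells (median 9470). Of the day 7 cells 58 lay above every day 0 cell, and the rest overlapped with day 0 near 0. At a TPM of 1 or more it was found in 0 of 54 day 0 cells (exact 95% interval 0 to 6.60%) and in 57 of 65 day 7 cells (87.7%, 77.2 to 94.5%); these intervals cover counting error only. The single count of Dppa5a at day 0 gives a ratio of 387300 between the sums, with a counting interval from 69520 to 15300000, and the fit gave a log2 fold change of 18.79 ± 0.79 (SE; edgeR adjusted p = 1.51e-120).

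Cdh1 encodes E-cadherin, the adhesion protein of epithelial cells. It ran from 0 to 108.7 TPM at day 0 (median 0) and from 0 to 288.6 TPM at day 7 (median 74.7). The groups overlapped, and 22 day 7 cells lay above every day 0 cell. It was found in 10 of 54 day 0 cells (18.5%, 9.26 to 31.4%) and in 54 of 65 day 7 cells (83.1%, 71.7 to 91.2%). The sums were at 17.7 CPM in day 0 b2, 37.9 in day 0 b1 and 268 in day 7 b2, and Cdh1 rose by a log2 fold change of 3.27 ± 0.58 (edgeR adjusted p = 1.42e-06).

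Cav1 encodes caveolin 1, which shapes the flask-like membrane pits called caveolae. It ran from 0 to 1398 TPM at day 0 (median 9.84) and was at 0 in every day 7 cell. It was found in 33 of 54 day 0 cells (61.1%, 46.9 to 74.1%) and in 0 of 65 at day 7 (0 to 5.52%). With 153.8 CPM in day 0 b2 and 97.6 in day 0 b1, its level in day 7 b2 was at least 10750-fold lower when 3 counts are taken for the day 7 sum (edgeR adjusted p = 8.75e-24). Col12a1, a collagen that sits on the surface of other collagen fibrils, ran from 0 to 533.8 TPM at day 0 (median 19.01) and from 0 to 0.73 TPM at day 7. It was found in 44 and in 0 cells, and its sum fell from 186.8 to 0.0286 CPM, with 6 counts left in the day 7 set (log2 fold change −12.25 ± 1.24, edgeR adjusted p = 3.85e-20).

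**Figure D1:**
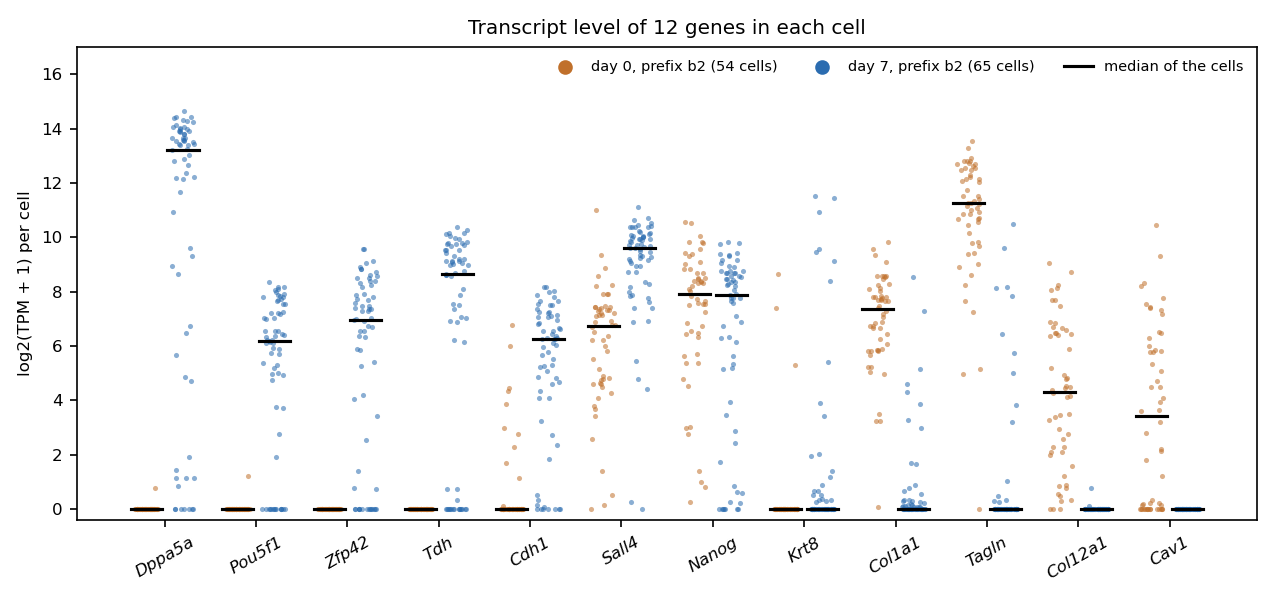
Transcript level of 12 genes in each cell, in log2(TPM + 1), for the 54 cells of day 0 b2 and the 65 of day 7 b2; points are cells and bars are medians. Most day 7 cells lie above all day 0 cells for Dppa5a, the groups overlap for Cdh1, Sall4 and Nanog, and all day 7 cells lie at 0 for Cav1.

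The b2 sets of the days between give values for the same 4 genes. The sums of Cav1 were 64.5 CPM at day 1, 26.2 at day 3 and 10.6 at day 5, and those of Col12a1 were 27.7, 28.1 and 0.129 CPM. Cdh1 was at 19.3, 27.8 and 81.9 CPM on the same days, and so stood near its day 0 level at days 1 and 3. Dppa5a was at 0.158, 40.5 and 1334 CPM. Each of these values is 1 set, and the order of the genes was not tested.

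Over all genes, 1467 of 22378 genes passed (6.56%), 794 higher at day 7 (3.55%) and 673 lower (3.01%), and the median log2 ratio of all tested genes was 0. The shares of 3.55% and 3.01% are the background for every list count given below. Another 10 genes had an adjusted p under 0.05 with the opposite ratio within b2 and were not counted. With the day 0 b1 set left out, which leaves b2 cells alone on both sides, 684 genes were higher and 800 lower. A likelihood ratio test within b2, with its spread taken from the fit on day, gave 631 and 572, and a fit with the prefix as a block gave 177 and 255. The count rested on both day 3 sets, which supply part of the spread: without day 3 b1 it was 505 higher and 432 lower, and without day 3 b2 481 and 429. Under the 17 alternatives a call also had to follow the ratio within b2. A gene that passed could therefore not be called in the opposite direction. Of the 136 named genes that passed, 25 lost the call when 1 set was left out, and these losses are given beside the genes described below.

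Many called genes came from few cells. Of the 794 genes that rose, 266 (33.5%) had over 50% of their day 7 counts in 2 cells, and of the 673 that fell, 180 (26.8%) had over 50% of their day 0 counts in 2 cells. Counts in at least 50% of the cells of the higher set were seen for 449 rises and 466 falls. The genes with the largest ratios were therefore taken from those with at least 50 CPM and a TPM of 1 or more in at least 50% of the cells of the higher set.

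**Figure D2:**
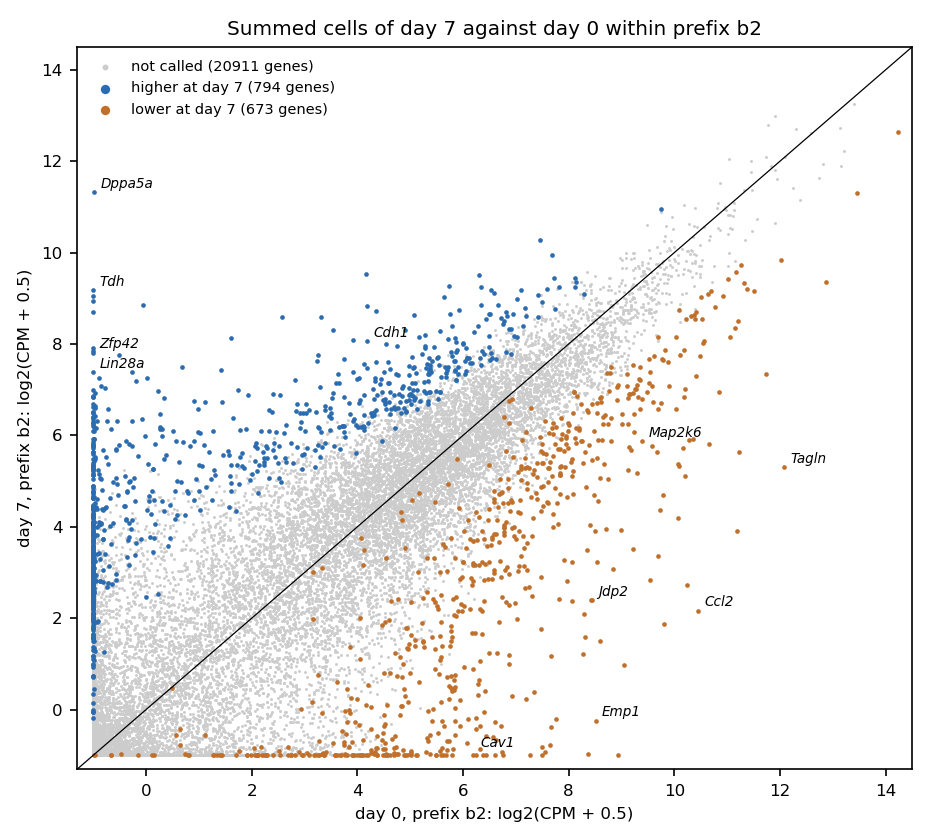
Level in day 0 b2 against day 7 b2 for all 22378 tested genes, both axes in log2(CPM + 0.5), with called genes in colour and the line of equal levels in black. Dppa5a is the highest of the genes along the left edge, and Cav1 lies on the lower edge with no counts at day 7.

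The 10 largest rises of that kind were Dppa5a, Tdh, Dppa3, Tdgf1, L1td1, Zfp42, Lin28a, Lefty2, Rhox5 and Kit. Tdh encodes threonine dehydrogenase, which breaks down threonine in mouse embryonic stem cells. It had no count in day 0 b2 and stood at 582 CPM at day 7, at least 29320-fold higher (edgeR adjusted p = 1.29e-82), with 47 of 65 cells at a TPM of 1 or more. Dppa3, a maternal factor that guards DNA methylation in the early embryo, went from no count in either day 0 set to 531 CPM in 50 cells. Zfp42 (Rex1), a zinc finger protein used as a mark of naive pluripotency, went from no count in either day 0 set to 225 CPM in 49 cells (at least 11320-fold, edgeR adjusted p = 3.65e-46). Tdgf1, a co-receptor of Nodal, was at 240 CPM in 43 cells, L1td1, an RNA-binding protein of retrotransposon origin, at 230 CPM in 54 cells, and Lin28a, which blocks let-7 maturation, at 168 CPM in 46 cells. Of these, Tdh had already reached 70.9 CPM in the day 1 set of b2, while Lin28a was at 0.00830 CPM at day 1 and at 0.742 CPM at day 3.

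The 10 largest falls were Msmp, Emp1, Lrrc32, Col12a1, Igfbp7, Adm, Ccl2, Cav1, Ctsh and Tnfaip2. Emp1, an epithelial membrane protein that fibroblasts also make, fell from 365 CPM in day 0 b2 and 343 in b1 to 0.348 CPM (log2 ratio within b2 −8.75, edgeR adjusted p = 1.59e-27), and the number of cells with it from 52 to 3. Igfbp7, a secreted protein that binds insulin-like growth factors, was found in 54 of 54 cells at day 0 and in 1 of 65 at day 7. Lrrc32, which holds latent TGF-beta at the cell surface, was at 179 CPM at day 0 and had 1 count at day 7. Ccl2, a chemokine that draws monocytes, was at 1401 CPM in day 0 b2 and 97.6 CPM in day 0 b1, so the 2 day 0 sets differed widely, and at 3.999 CPM in day 7 b2, with 99.4% of the day 7 counts in 1 cell.

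The sequences before the starts of these genes are shown for 3 of them, chosen after the search because their windows hold letters that factors of either state are known to bind. RefSeq windows of 250 bases before to 50 bases after a start (GRCm38.p6) were found for 12 of the 20 genes, 6 rises and 6 falls, in 15 windows. The octamer that Pou5f1 binds was searched as ATGCAAAT, the AP-1 element as TGANTCA, the E-box of the Snail family as CAGGTG and the TEAD element as GGAATG, on both strands. The matches in the printed windows do not overlap. The Zfp42 window, chr8:43306960-43307259 on the minus strand, holds the octamer 186 bases before the start, an E-box 110 bases before it and a TEAD element 45 bases before it. Window 1 of Emp1, chr6:135362681-135362980 on the plus strand, holds 2 AP-1 elements, 145 and 25 bases before the start. Window 2 of Cav1, chr6:17307390-17307689 on the plus strand, holds an E-box 158 bases before the start. Window 2 of Emp1 and window 1 of Cav1, at other starts of these genes, hold none of the motifs searched and are not printed. Capitals mark the octamer, AP-1 and E-box matches, and the TEAD element is left in lower case.
Zfp42: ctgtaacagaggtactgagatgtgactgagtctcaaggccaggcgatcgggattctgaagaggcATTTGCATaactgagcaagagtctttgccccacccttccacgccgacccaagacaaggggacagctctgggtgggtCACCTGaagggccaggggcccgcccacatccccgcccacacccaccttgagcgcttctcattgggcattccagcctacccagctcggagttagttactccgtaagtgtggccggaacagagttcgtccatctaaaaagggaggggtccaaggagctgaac
Emp1: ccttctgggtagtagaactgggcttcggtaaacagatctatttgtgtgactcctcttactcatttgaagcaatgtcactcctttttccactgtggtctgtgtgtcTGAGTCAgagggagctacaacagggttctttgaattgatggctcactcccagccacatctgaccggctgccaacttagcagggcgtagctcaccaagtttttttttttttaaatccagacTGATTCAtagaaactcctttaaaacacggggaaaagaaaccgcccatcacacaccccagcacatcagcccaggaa
Cav1: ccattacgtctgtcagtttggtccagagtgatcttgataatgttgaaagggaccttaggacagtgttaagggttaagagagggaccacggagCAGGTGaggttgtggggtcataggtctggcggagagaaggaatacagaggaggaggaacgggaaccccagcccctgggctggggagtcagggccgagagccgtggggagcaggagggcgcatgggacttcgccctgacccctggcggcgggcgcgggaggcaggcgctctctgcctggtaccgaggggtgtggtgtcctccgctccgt
Of all 32851 RefSeq windows, 1.74% hold the octamer, 7.81% the AP-1 element, 20.2% the E-box and 14.7% the TEAD element. Among the 12 genes the octamer was found in Zfp42 and the AP-1 element in Emp1 alone. The E-box was found in 2 rises and 2 falls, and the TEAD element in 1 of each. A match is a description of the letters in the window.

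Of the 7 factors of the published cocktail 4 fell and 0 rose. Of these 4, Kdm2b was not called in the likelihood ratio test within b2 or with the prefix as a block. Jdp2, a repressor of AP-1 targets, was found in 54 of 54 cells at day 0 and in 15 of 65 at day 7, and fell from 346 CPM (b2) and 407 CPM (b1) to 4.76 CPM (log2 ratio −6.04, edgeR adjusted p = 4.89e-18). The kinase gene Map2k6 fell from 674 to 58.5 CPM (adjusted p = 2.97e-07), and the nuclear receptor gene Esrrb from 954 to 135 CPM (adjusted p = 3.77e-07). Kdm2b, a histone demethylase, fell from 346 to 103 CPM (adjusted p = 0.0198), a call that was lost without either day 3 set (0.0906 and 0.0954). Sall4, a zinc finger factor of the pluripotency network, stood at 711 and 626 CPM in the day 0 sets and at 1550 CPM in day 7 b2 without passing (adjusted p = 0.064). Nanog stood at 675 and 366 CPM in b2 (adjusted p = 0.547), and Glis1 at 4.09 and 0.239 CPM (adjusted p = 0.247). Esrrb, Nanog and Sall4 are also native genes of pluripotent cells, and what share of their counts is native was not tested.

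Of 30 pluripotency genes outside the cocktail, 25 rose and 0 fell, with a median log2 ratio within b2 of 6.97. Since 14 of the 30 had no count in day 0 b2, the median is 11.04 when those are set at 3 counts. Pou5f1, the reporter's own gene and the centre of the network, ran from 0 to 1.31 TPM at day 0 and from 0 to 324.1 TPM at day 7 (median 71.9). It was found in 1 of 54 and in 51 of 65 cells, and the sums were at 0.0132 and 86.1 CPM, a ratio of 6508 with a counting interval from 1801 to 53750 (edgeR adjusted p = 5.4e-20). Sox2, its partner on DNA, was found in 3 cells at day 0 and in 50 at day 7 (0.397 and 46.3 CPM, adjusted p = 2.98e-13). Tfcp2l1, a factor of the naive state, rose from 17.4 to 738 CPM, the growth factor gene Fgf4 from 0 to 73.5 CPM in 32 cells, and Utf1, a chromatin protein, to 68.1 CPM in 44 cells. Tbx3 was present before, at 40.5 CPM in 33 cells, and rose to 169.5 CPM (adjusted p = 0.0102). Klf4 (61.1 and 104 CPM, adjusted p = 0.33), Klf5 (8.08 and 15.3 CPM, 0.826) and Nr5a2 (0 and 19.3 CPM, 0.092) did not pass.

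Among 27 genes of Nodal, Lefty and FGF signalling, 6 rose and 8 fell, with a median of 0 (−0.44 with genes without counts set at 3). The count of falls was 5 without either day 3 set, 4 in the likelihood ratio test within b2 and 2 with the prefix as a block, while that of rises was 6, 6 and 5. Those that rose were Nodal itself (no count at day 0, 24.8 CPM in 26 cells), its inhibitors Lefty1 (1.05 to 42.4 CPM) and Lefty2 (0.0397 to 151.5 CPM in 40 cells), the protease Pcsk6, Foxh1, the DNA-binding partner of Smad2 (0.0132 to 99.7 CPM in 46 cells), and Etv5. Etv5, a factor induced by FGF signalling, rose from 29.5 to 316 CPM (adjusted p = 1.34e-09). The FGF feedback gene Spry4 fell from 134 to 8.36 CPM (adjusted p = 3.31e-06). The other falls were Spry2, Spry1 and Dusp6, which also dampen FGF signals, the ligand gene Fgf7, the receptor gene Fgfr2, Etv4, a relative of Etv5, and Furin, a convertase that can process Nodal. Of 18 regulators of later embryonic stages 3 rose (16.67%, against 3.55% of all tested genes). Tfap2c rose from 2.44 to 50.1 CPM in 33 cells. The mesoderm gene T owed 99.8% of its day 7 counts to 1 cell and lost its call without each gene's highest cell (adjusted p = 0.672), and Otx2 lost its call when any 1 of the 4 sets of days 0 and 3 was left out (0.0853 to 0.135).

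Epithelial genes moved one way where they passed. Of 29 junction and keratin genes, 13 rose and 0 fell (median 2.96, and 3.30 with genes without counts set at 3); without day 3 b2 there were 8 rises, and with the prefix as a block 2. Epcam, an adhesion protein of epithelia and of pluripotent cells, was found in 0 of 54 cells at day 0 and in 47 of 65 at day 7 (0 and 81.4 CPM, at least 4102-fold, adjusted p = 2.56e-14). The desmosome genes Dsg2 and Dsp also rose, Dsg2 from 10.97 to 113 CPM in 55 cells and Dsp from 13.01 to 72.9 CPM in 30 cells. Jup (69.2 and 62.2 CPM) and Tjp1 (33.5 and 59.9 CPM), which also serve mesenchymal contacts, did not pass (adjusted p = 0.876 and 0.691). Of 13 epithelial regulators 4 rose. Elf3, an ETS factor of epithelia, had no count in either day 0 set and stood at 113 CPM in 45 day 7 cells (adjusted p = 5.11e-20), while the splicing factor gene Esrp1 was found in 11 cells and Grhl3 in 16.

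**Figure D3:**
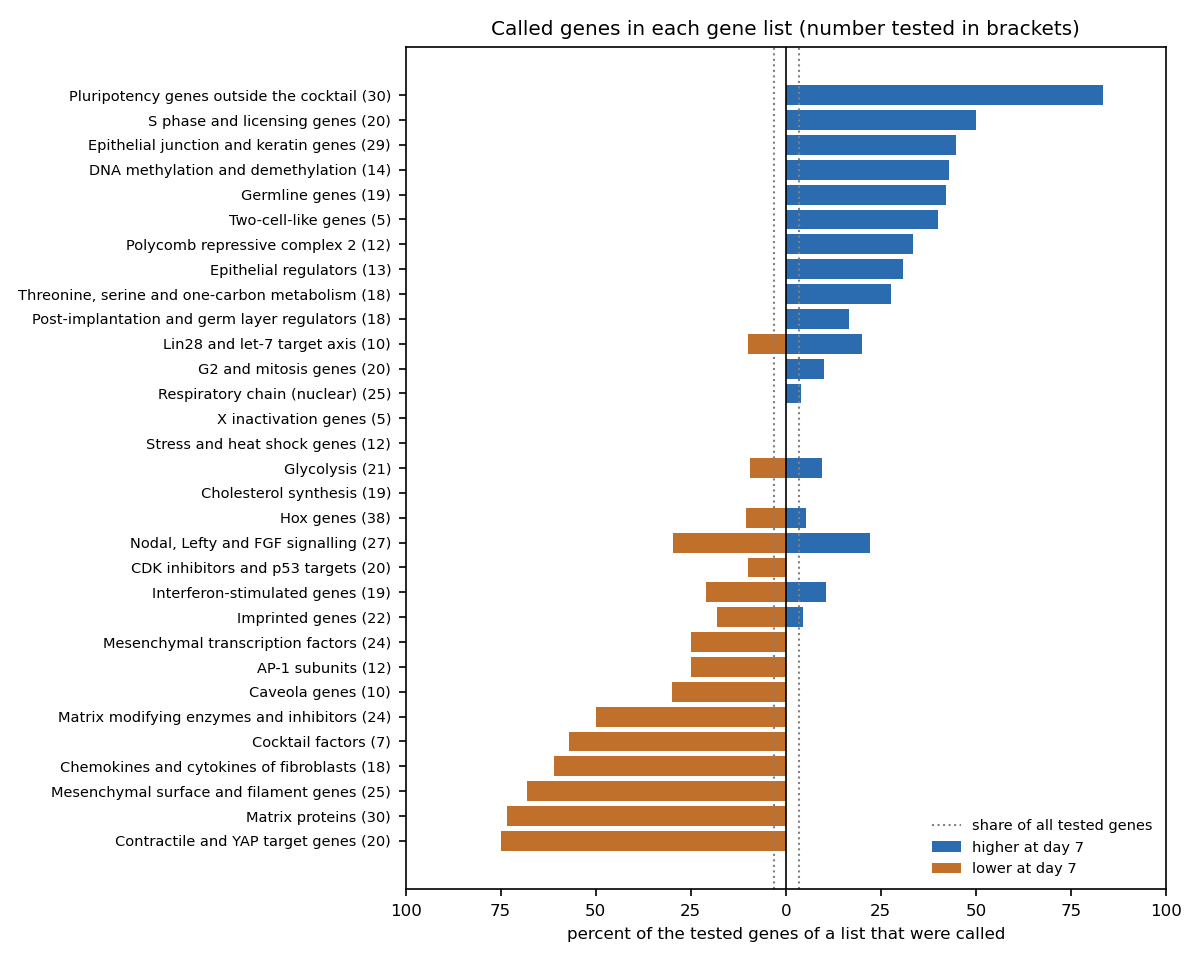
Percent of the tested genes of each list called higher (bars to the right) or lower (bars to the left) at day 7, with the number tested in brackets; dotted lines mark 3.55% and 3.01%, the shares of all tested genes, and the lists of other cell types are left out. The pluripotency genes have the longest bar to the right, 25 of 30, and contractile genes (15 of 20) and matrix proteins (22 of 30) have bars of similar length to the left.

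Matrix genes fell. Of 30 matrix proteins 22 fell and 0 rose (median log2 ratio within b2 −3.38), and their summed level went from 12030 CPM in day 0 b2 and 9589 in day 0 b1 to 1150 CPM. Col1a1 ran up to 370.9 TPM in the day 7 cells with a median of 0, and was found in 53 of 54 and in 10 of 65 cells (1071, 1315 and 41.3 CPM in day 0 b2, day 0 b1 and day 7 b2, adjusted p = 2.78e-13). Its partner chain Col1a2 was at 1203, 1105 and 6.08 CPM, and the proteoglycan gene Bgn at 2338, 1492 and 14.49 CPM. Fn1, the fibronectin gene, fell by the smallest step of the matrix proteins named here, from 1329 to 395.5 CPM (adjusted p = 0.0184), and was found in 65 of 65 day 7 cells. Vcan, which makes the proteoglycan versican, did not pass (186 and 85.6 CPM, adjusted p = 0.383). Of 24 matrix modifying enzymes and inhibitors 12 fell and 0 rose (median −2.22). Lox, which cross-links collagen, was found in 26 and in 2 cells (217 and 0.372 CPM, adjusted p = 2.63e-18), and Timp3, an inhibitor of metalloproteases, fell from 1076 to 17.7 CPM. Timp1, another such inhibitor, did not pass (288 and 74.5 CPM, adjusted p = 0.102).

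Of 20 contractile genes and YAP targets 15 fell and 0 rose (median −3.67), with sums of 17530, 7288 and 1390 CPM in day 0 b2, day 0 b1 and day 7 b2. Without day 0 b2, 9 were called lower, and with the prefix as a block also 9. Tagln, an actin-binding protein of smooth muscle and fibroblasts, ran up to 11830 TPM at day 0 (median 2439) and up to 1422 TPM at day 7 (median 0), and was found in 53 and in 11 cells. The day 0 sets differed, at 4319 CPM in b2 and 1147 in b1, and the day 7 set was at 39.05 CPM, below both (adjusted p = 3.34e-20). Acta2, smooth muscle actin, was at 2380, 1191 and 49.3 CPM (adjusted p = 2.81e-15). Ankrd1, a target of YAP, was at 849 CPM in day 0 b2, 45.7 in day 0 b1 and 20.2 in day 7 b2, and without the day 0 b2 set its adjusted p was 0.734. Tpm1, a tropomyosin, fell from 3405 to 161.5 CPM but was still found in 60 of 65 day 7 cells. Cnn3, a calponin outside muscle, did not pass (525 and 402 CPM, adjusted p = 1). Of 10 caveola genes 3 fell: Cav1, Cav2 (33.95 CPM and no count, at least 2371-fold lower) and Cavin1 (580 to 50.5 CPM).

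Of 25 mesenchymal surface and filament genes 17 fell and 0 rose (median −2.52). Itga11, a collagen receptor subunit, had 96.5 and 84.8 CPM in the day 0 sets and no count at day 7 (at least 6740-fold lower, adjusted p = 1.5e-24). S100a4, a calcium-binding protein named for fibroblasts, was found in 37 and in 0 cells (at least 3323-fold lower). The hyaluronan receptor gene Cd44 fell from 362 to 14.6 CPM and the PDGF receptor gene Pdgfrb from 127 to 4.53 CPM. Vim, vimentin, fell from 1272 to 390 CPM and was found in 56 of 65 day 7 cells. Thy1, often used to sort fibroblasts, was found in 21 of 54 day 0 cells and 1 day 7 cell (22.4, 3.16 and 0.0477 CPM, adjusted p = 0.00739), a call lost without day 0 b2 (0.0521) or day 3 b2 (0.117). Of 24 mesenchymal transcription factors 6 fell and 0 rose (median −1.83): Osr1, Prrx1, Foxc2, Snai2, Twist2 and Snai1. Prrx1, a homeobox factor of limb mesenchyme, fell from 375 to 23.1 CPM (adjusted p = 8.93e-08) and Snai2, a repressor of Cdh1, from 47.3 to 3.30 CPM (adjusted p = 0.00481). Twist1 (11.8 and 3.89 CPM, adjusted p = 0.535) and Zeb1 (40.3 and 20.2 CPM, 0.539), also repressors of epithelial genes, did not pass.

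Secreted immune signals had the lowest median ratio of the 37 lists. Of 18 chemokines and cytokines of fibroblasts 11 fell and 0 rose, with a median of −4.88, and the summed level was 2743 CPM in day 0 b2, 834 in day 0 b1 and 45.1 in day 7 b2. In single day 0 b2 cells the summed TPM of the list had a median of 758 and a highest value of 92920. The day 0 b1 cells had a median of 662 and a highest value of 2308. The part of the highest b2 cell in the difference between the day 0 sets was not tested. The day 0 sets disagreed on several members. Ccl7, a chemokine next to Ccl2 in function, was at 487 CPM in b2, 0.772 in b1 and had no count at day 7, and Cxcl10 was at 108 CPM in b2 (5 cells), with no count in b1 or at day 7. Csf1, the macrophage growth factor, was at 265, 118 and 4.73 CPM (adjusted p = 1.64e-08), and Il11 at 85.3, 48.2 and 0.835 CPM. Of 12 AP-1 subunits 3 fell. Fosl1 was found in 29 day 0 cells and had no count at day 7 (25.3, 26.7 and 0 CPM, adjusted p = 3.22e-08). Junb was at 71.2, 33.2 and 6.17 CPM (adjusted p = 0.0116, but 0.0548 without day 0 b2 and 0.053 without day 3 b1), and Fos at 372, 333 and 104 CPM (0.0149, but 0.0773 and 0.0859 without a day 3 set). Jun did not pass (40.6 and 38.4 CPM, adjusted p = 0.901).

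Of 19 interferon-stimulated genes 4 fell (21.05%) and 2 rose (10.53%), against 3.01% and 3.55% of all tested genes. B2m, the light chain of class I molecules, fell from 818 to 49.3 CPM (adjusted p = 2.23e-09), and Ifitm1, which also marks early germ cells, rose from 52.2 to 276.5 CPM in 63 of 65 cells (adjusted p = 4.38e-05). Ifit1 and Ifit3 had 93.99% and 98.67% of their day 0 b2 counts in 1 cell and were not called without each gene's highest cell (adjusted p = 0.22 and 0.312). Ifit1 was at 66.7 CPM in day 0 b2 and 0.0180 CPM in day 0 b1, and without day 0 b2 its fitted log2 fold change turned to 2.49 (adjusted p = 0.603).

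Enzymes of DNA methylation and of Polycomb marks, which pluripotent cells hold at high levels, rose where they passed. Of 14 genes of DNA methylation and demethylation 6 rose and 0 fell (median 1.38). Tet1, which oxidises methylcytosine, rose from 5.43 CPM (b2) and 6.02 CPM (b1) to 388 CPM, from 4 of 54 to 56 of 65 cells (adjusted p = 3.47e-23). Tet2, another such enzyme, rose from 56.97 to 282 CPM, the methyltransferase gene Dnmt3b from 13.8 to 104 CPM in 43 cells, and its cofactor Dnmt3l from no count to 20.6 CPM in 16 cells. Trim28, which silences retroviral repeats, rose from 122.5 to 406 CPM and was found in 65 of 65 cells, and Uhrf1, which guides the maintenance methyltransferase, from 224 to 604 CPM. Dnmt1, that maintenance methyltransferase, was at 62.1 and 157 CPM without passing (adjusted p = 0.281). In the likelihood ratio test within b2, Tet2 (0.052) and Trim28 (0.144) did not pass. Of 12 genes of Polycomb repressive complex 2, which methylates histone H3, 4 rose and 0 fell (median 1.18). The core subunit gene Suz12 rose from 43.1 to 245 CPM (adjusted p = 0.00033), and the accessory subunit genes Jarid2 from 89.8 to 402 CPM, Mtf2 from 100.3 to 461 CPM and Epop from 1.22 to 27.1 CPM. Those 3 did not pass the likelihood ratio test within b2 (0.0609, 0.0511 and 0.0651), and all 4 calls were lost with the prefix as a block (0.0579 to 0.153). The catalytic subunit gene Ezh2 was at 98.9 and 293 CPM (adjusted p = 0.0795).

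Of 10 genes around Lin28 and let-7, a microRNA family that Lin28 proteins hold down, Lin28b (no count to 16.6 CPM, in 10 cells) and the RNA-binding protein gene Igf2bp1 (35.3 to 285 CPM, in 65 of 65 cells) rose. Hmga2, a chromatin protein that let-7 targets in fibroblasts and tumours, fell from 1507 CPM in b2 and 1802 in b1 to 266 CPM (adjusted p = 1.52e-05).

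Of 18 genes of threonine, serine and one-carbon metabolism 5 rose and 0 fell (median 0.99). Beside Tdh these were Amt, part of the glycine cleavage system (2.85 to 128 CPM, from 14 to 61 cells, adjusted p = 9.6e-09), Gcat, the enzyme after Tdh in threonine breakdown (57.7 to 148 CPM, 0.012), the thymidylate synthase gene Tyms (116.5 to 323 CPM, 0.0247) and Ahcy (56.4 to 198 CPM, 0.0366). Gcat was at 13.8 CPM in day 0 b1, and without that set its adjusted p was 0.19. Tyms (0.0895 and 0.0932) and Ahcy (0.102 and 0.107) did not pass without a day 3 set, nor Ahcy without day 0 b2 (0.0867). Gcat, Tyms and Ahcy were also not called in the likelihood ratio test within b2 or with the prefix as a block. The serine synthesis gene Psat1 (301 and 298 CPM) did not pass (adjusted p = 1). In glycolysis 2 of 21 genes rose and 2 fell: the glucose transporter gene Slc2a3 rose from 52.95 to 616 CPM (adjusted p = 2.16e-16), Slc2a1 was called but not without day 0 b1 (0.245), and Ldhb, a lactate dehydrogenase subunit, fell from 2899 to 572 CPM (adjusted p = 0.000211), as did Eno2. The other enzymes, among them Gapdh (7185 and 3954 CPM) and Pkm (1157 and 2123 CPM), did not pass. Each count of 2 is 9.52% of the glycolysis list, against 3.55% (higher) and 3.01% (lower) of all tested genes. Of 25 nuclear genes of the respiratory chain 1 rose (4.0%, near the 3.55% of all tested genes). It was Cox7a1, which did not pass without day 0 b1 or a day 3 set (0.0903 to 0.111). Of the 25 genes 23 had a ratio below 0 within b2, and the median was −0.68. Their summed level was 12000 CPM in day 0 b2, 7931 in day 0 b1 and 8127 in day 7 b2, so day 7 lay below 1 of the day 0 sets and above the other. None of 19 cholesterol synthesis genes was called by edgeR, where 6 had an unadjusted p under 0.05 and DESeq2 called 3 higher.

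Cell cycle genes had ratios above 0 in most members. Of 20 S phase and licensing genes 10 rose and 0 fell (median 1.73), among them Mcm5, a helicase subunit (38.4, 37.8 and 294 CPM, from 19 of 54 to 59 of 65 cells, adjusted p = 7.96e-07), Mcm2 (37 to 221 CPM) and Mcm3 (105 to 381 CPM). In the likelihood ratio test within b2, 3 S phase genes were called, and the fit with the prefix as a block called none of them. Of 20 G2 and mitosis genes the checkpoint kinase gene Bub1 and the kinetochore gene Cenpf rose, neither of them in that test (0.142 and 0.0943), while 19 had a ratio above 0 (median 0.92). Mki67 was found in 25 of 54 and 50 of 65 cells without a call (92.6 and 184 CPM, adjusted p = 0.435). The 2 rises among G2 and mitosis genes are 10.0% of the list, against 3.55% of all tested genes. At least 50% of the 20 G2 and mitosis genes were found in 25 of 54 day 0 cells (46.3%) and 59 of 65 day 7 cells (90.8%), and at least 50% of the 20 S phase genes in 38 (70.4%) and 63 cells (96.9%). Of 20 CDK inhibitors and p53 targets 2 fell (10.0%, against 3.01% of all tested genes): Cdkn1c (595 to 185 CPM) and Ccng1 (734 to 142 CPM). Cdkn1c did not pass the likelihood ratio test within b2 (0.129). Cdkn1a, the p21 gene, was at 551 and 204.5 CPM (adjusted p = 0.16), and Cdkn2a at 0.404 and 0.391 CPM (adjusted p = 1).

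Of 19 tested germline genes 8 rose and 0 fell (median 3.39, and 7.88 with genes without counts set at 3). Morc1, a repressor of transposons in male germ cells, went from no count to 84.2 CPM in 44 cells, Tdrd12 of the piRNA pathway from 0.377 to 145 CPM in 45 cells, and the homeobox gene Rhox5 from 0.0529 to 136 CPM in 36 cells. Rhox6 reached 127 CPM in 17 cells, one of them at 9263 TPM. Of 22 imprinted genes 4 fell (18.18%) and 1 rose (4.545%), against 3.01% and 3.55% of all tested genes. In the likelihood ratio test within b2 there was 1 fall. Igf2, a growth factor, fell from 886 to 201 CPM (adjusted p = 0.000563) and Cdkn1c fell with it. H19, the noncoding neighbour of Igf2, fell from 2306 to 760 CPM (0.0415) and Igf2r from 285 to 116 CPM (0.0167), and Plagl1 rose from 92.1 to 223 CPM (0.0179); these 3 did not pass without a day 3 set (0.0722 to 0.295), nor Plagl1 without day 0 b1 (0.113). Of 38 Hox genes 4 fell (10.5%) and 2 rose (5.26%), against 3.01% and 3.55% of all tested genes. Their median was −1.01, and −2.02 with genes without counts set at 3. Without either day 3 set 1 fell and 0 rose, and with the prefix as a block none of the 6 calls was left. Xist, the RNA that coats the inactive X chromosome, was at 29.4 CPM in day 0 b2, 183 in day 0 b1 and 47.5 in day 7 b2 (adjusted p = 0.311).

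Markers of other cell types were tested as well, in short lists, beside which 3.55% of all tested genes were higher and 3.01% lower. Of 7 tested immune markers 1 rose, the lysosomal protein gene Laptm5 (no count to 17.7 CPM in 25 cells, 24 of them with a high pluripotency score as defined below), while Ptprc, Adgre1 and Tyrobp were too low to test. Of 12 endothelial markers Tek (3 cells) and Pecam1 rose and Flt1 fell. Pecam1, which pluripotent mouse cells also carry, was found in 0 and in 38 cells, but without either day 3 set, without day 0 b2 or without its highest cell it was not called (adjusted p = 0.0998 to 0.323). Of 14 neural markers Stmn2 (19.8 to 147 CPM, 43 cells), Nefl (0.761 to 19.9 CPM, 19 cells) and Tubb3 (1.48 to 95.4 CPM, 40 cells) rose, with Tubb3 at 20.1 CPM in day 0 b1 and not called without day 0 b2 (0.109). Their summed lists were at 7.97 and 33.4 CPM (immune), 59.5 and 96.8 CPM (endothelial) and 32.4 and 288 CPM (neural) in day 0 and day 7 b2. In the neural score, the mean of log2(TPM + 1) over the list, 42 of 65 day 7 cells lay above every day 0 cell of b2, and with the prefix as a block none of the 3 neural calls was left. Of 9 skeletal muscle markers Tnnt3 fell, of 7 adipocyte markers none was called by edgeR or DESeq2 or had an unadjusted p under 0.05, and of 9 trophoblast and yolk sac markers Cubn was called from 1 cell (97.5% of its counts) and lost the call when any 1 set of days 0 and 3 was left out (0.0829 to 0.14). None of 12 stress genes was called by edgeR, where 3 had an unadjusted p under 0.05 and DESeq2 called 2 lower.

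The day 7 cells were not alike. A pluripotency score was taken in each cell as the mean of log2(TPM + 1) over the 30 pluripotency genes outside the cocktail. It ran from 0 to 0.83 in the day 0 cells (median 0.31) and from 0.27 to 6.76 in the day 7 cells (median 4.42). The widest gap in the day 7 scores, found after the values were seen, lay between 1.90 and 2.75. It left 49 cells above (75.4%) and 16 below (24.6%), of which 6 lay within the day 0 range and 10 above it. These are ranges of a score and not cell types, and no test was made between them. The same score over the 30 matrix proteins ran from 1.27 to 5.46 at day 0 (median 3.33) and from 0.26 to 3.36 at day 7 (median 0.63). Of the 65 day 7 cells 57 lay below every day 0 cell in the matrix score, 51 of 65 did so in the contractile score, and 59 of 65 lay above every day 0 cell in the pluripotency score. In 3 cells both the pluripotency and the matrix score lay within the day 0 range.

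**Figure D4:**
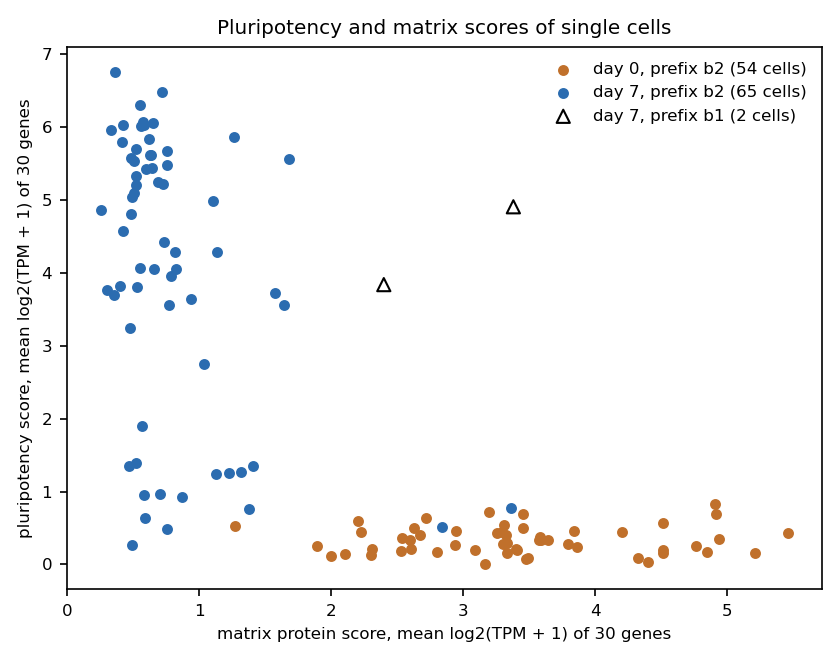
Pluripotency score (vertical axis) against matrix score (horizontal axis) of each cell, both means of log2(TPM + 1) over 30 genes, for 54 day 0 b2 cells, 65 day 7 b2 cells and, as triangles, 2 day 7 cells of prefix b1 that entered no comparison. Day 0 cells lie along the lower edge with matrix scores from 1.27 to 5.46, and 49 day 7 b2 cells lie at 2.75 or more on the pluripotency axis with matrix scores of at most 1.68.

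The cells above the gap are described by the genes they held; as the score was the mean of the same 30 genes, the number of these found per cell follows from the choice and is no result. A median of 24 of the 30 genes (14 to 29) had a TPM of 1 or more in each, against 6 (2 to 11) in the 16 cells below the gap and 2 (0 to 6) in the day 0 cells. Pou5f1, Dppa5a and Sall4 were found in 49 of these 49 cells, Cdh1 in 48, Nanog and Dppa3 in 47, Tdh in 46, Zfp42 in 45 and Epcam in 43. Of the genes just named, Cdh1, Epcam, Tdh, Sall4 and Nanog were not among those of the score. Levels still varied among them: Dppa5a ran from 50.2 to 25400 TPM (quartiles 6480 and 16200), and Dppa3 from 0 to 4887 TPM (quartiles 109 and 2144). Sall4 ran from 165.9 to 2202 TPM with a median of 922 in these cells, and was found in 14 of the 16 cells below the gap with a median of 183 TPM. Nanog had a median of 345 TPM above the gap and was found in 6 of the 16 below it (median 0.355).

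The 16 cells below the gap differed among themselves in the fibroblast genes they held. Col12a1 and Cav1 were found in none of them, Col1a1 in 5, and their median matrix score was 0.82 against 0.60 above the gap and 3.33 at day 0. In the matrix score 5 of the 16 lay at or above the lowest day 0 cell (1.27). Their contractile score had a median of 2.75 and a range from 0.84 to 5.19, against a median of 5.90 at day 0, and 8 of 16 lay at or above the lowest day 0 cell (2.69). Dppa5a was found in 8 of them with a median of 1.0 and a highest value of 88.6 TPM, Pou5f1 in 2 and Cdh1 in 6. Of the score genes, Dppa5a, Dppa3, Pou5f1, Zfp42, Tdgf1 and Lin28a were compared across the gap, and Lin28a was the exception among these. It was found in 11 of 16 cells with a median of 60.7 TPM, against 35 of 49 above the gap with a median of 21.9 TPM. Genes chosen after their values were seen stood higher there than above the gap, namely H19 (16 of 16 cells, median 1023 TPM, against 1.46 TPM above the gap), the BMP target Id1 (14 cells, median 156 against 0 TPM) and the retinoic acid binding protein genes Crabp2 (14 cells, median 174 against 1.78 TPM) and Crabp1 (11 cells, median 168 against 0 TPM). These genes were also present at day 0, where Id1 was found in 47 of 54 cells, Crabp1 in 36 and Crabp2 in 19. From day 0 b2 to day 7 b2 the sums went from 144.1 to 41.6 CPM (Id1) and from 345.7 to 43.65 CPM (Crabp1). That of Crabp2 went from 34.6 to 127.8 CPM, and H19 fell, as given above. A median of 4.5 Hox genes of 39 was found per cell below the gap, against 6 at day 0 and 1 above the gap. Their counts ran from 1.008 to 4.854 M against 1.256 to 6.999 M above the gap, with median gene numbers of 8145 and 8354.

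**Figure D5:**
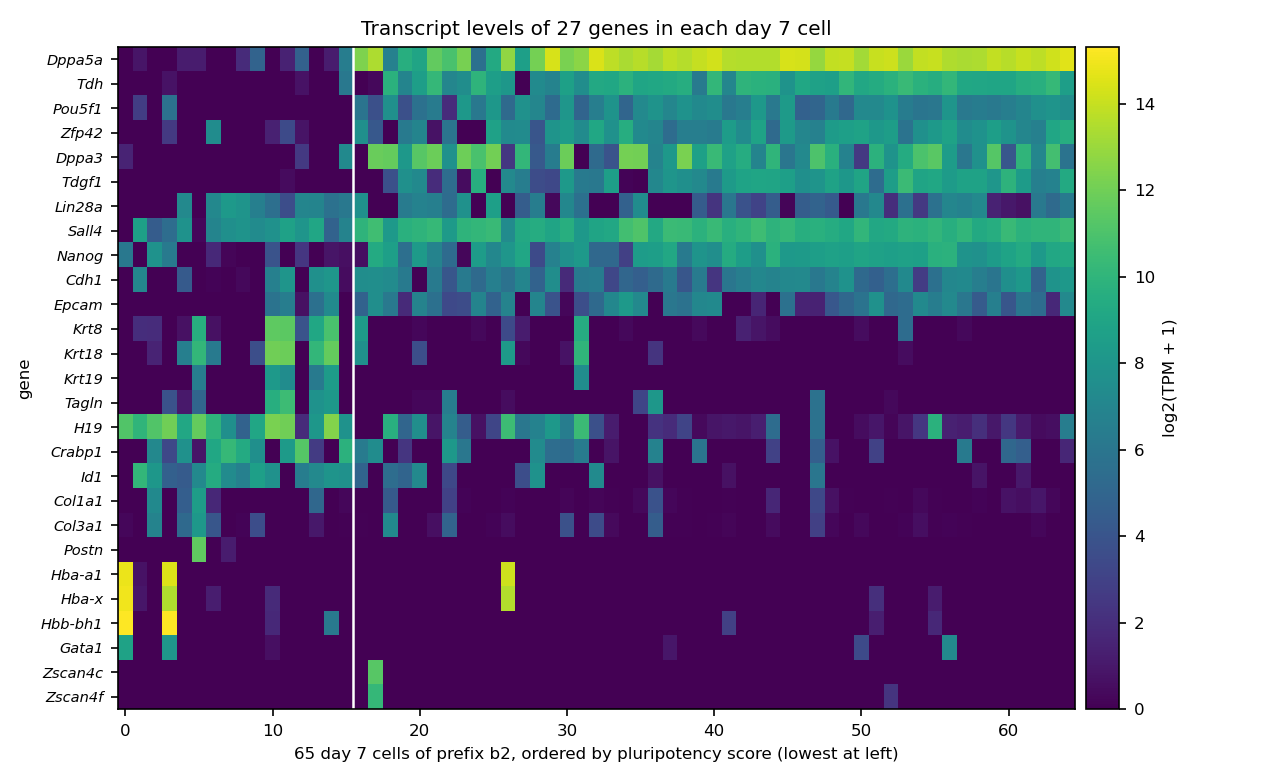
Level of 27 genes, in log2(TPM + 1) as colour, in each of the 65 day 7 b2 cells, ordered from left to right by pluripotency score, with a white line after the 16 cells below the gap. Dppa5a, Pou5f1 and Cdh1 fill the right side, Sall4 and Lin28a are also seen on the left, and the keratin and globin genes appear in a few cells.

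Where Dppa5a and Col1a1 were found in 1 day 7 cell of b2, 1 of them was low. Levels were compared for this pair alone, and Fn1 and Vim, found in most day 7 cells, were not paired. Dppa5a was found in 57 and Col1a1 in 10 of the 65 day 7 cells, and both in 7, while Pou5f1 and Col1a1 were found together in 5. In 2 of the 7 cells, both below the gap, Dppa5a was at 1.22 and 1.23 TPM and Col1a1 at 23.25 and 370.9 TPM. In the 5 above it, Dppa5a ran from 105 to 12110 TPM and Col1a1 from 2.17 to 18.85 TPM, against a median Col1a1 of 162 TPM at day 0. Of the 54 cells with Cdh1, 51 also held Dppa5a and 3 did not. Krt8, an epithelial keratin, rose in the sum (15.9 to 153 CPM, adjusted p = 0.000349; 0.0531 in the likelihood ratio test within b2), but was found in 14 of 65 cells. In 6 of them it lay above the highest day 0 cell (398 TPM), with values from 558 to 2965 TPM. Of these 6 cells 5 lay below the pluripotency gap, 6 held Krt19, 5 held Tagln and 1 held Pou5f1, and they held a median of 21 of the 29 junction and keratin genes (9 to 25), against at most 10 in any day 0 cell. Krt18, the usual partner of Krt8, was found in 28 of 54 day 0 cells and 14 of 65 day 7 cells (107 and 168 CPM, adjusted p = 0.914).

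A few single cells stood out by genes that few other cells held; these were chosen after their values were seen. Hbb-bh1, an embryonic beta globin, had no count at day 0 and 491 CPM at day 7, with 99.9% of the counts in 2 cells (40910 and 40460 TPM), and passed the test (adjusted p = 2.74e-56). Both cells also held Gata1, the erythroid transcription factor, and Alas2 of haem synthesis. Their pluripotency scores were 0.27 and 0.64, and their levels of Map2k6, a gene of the cocktail, 891 and 1144 TPM. The cell with the score of 0.64 also held Pou5f1 at 52.49 TPM. Whether the Map2k6 transcripts were native was not tested. Another cell held the alpha globin gene Hba-a1 at 17970 TPM and Hba-x at 11960 TPM without Hbb-bh1, Gata1 or Alas2, and had a pluripotency score of 3.96 with Dppa5a at 7081 TPM. Zscan4c, a gene of the 2-cell embryo that a small share of embryonic stem cells switches on at any time, was found in 1 day 7 cell, at 2596 TPM, and passed the test from that cell alone (adjusted p = 2.94e-08), with no call for its group without each gene's highest cell. That cell held 7 of 10 genes of this group, while no other day 7 cell held more than 1 and no day 0 cell held any. It lay above the pluripotency gap (score 3.24), with Dppa3 at 3573 TPM.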

How the data were processed

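Each sample was 1 C1 cell. The deposited expected counts are estimates per gene and cell that the authors made with RSEM 1.2.22 after bcl2fastq, per the submitters' processing notes, and 9.108% of them were not whole. The deposited TPM values, also from the authors, sum to between 994110 and 999272 in a cell. Aligner, genome build and annotation: not given in the sources used here. No cell was removed.

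For each prefix and day the expected counts of all its cells were added up, rounded and fitted in edgeR 4.0.16 (R 4.3.3) over the 8 sets of 10 or more cells, with TMM factors, filterByExpr, a term for day and no block. The fit had 2 residual degrees of freedom and infinite prior degrees of freedom, so p-values rest on a spread shared over genes (biological coefficient of variation 0.872) between sets that may be technical. A standard error is the size of the log2 fold change divided by the root of its F statistic. "At least" folds take 3 counts for a sum at 0. Shares of cells have exact Clopper-Pearson 95% intervals. Intervals and limits cover counting error only, as the labels name no molecular identifiers. No doublet caller was run. The fit was run on simulated data with known changes. Their spread was taken from these same sets, so the run could not check the assumption made about the day 7 set.

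The members and gene lists were chosen with earlier results of these data known, so no list's direction is independent evidence. The named-gene rule took the 10 largest rises and falls (predicted genes, pseudogenes, ribosomal protein and histone genes left out), up to 5 called and 3 uncalled members of each list, and the markers; some are given only as counts, and a few are not reported here. Alternatives used DESeq2 1.42.0, limma 3.58.1 and other filters, scalings and sets. Python steps used numpy 2.4.6, pandas 2.3.3, scipy 1.17.1 and matplotlib 3.10.9.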

Additional observations from a re-analysis of the deposited data

Results flagged for a closer look

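Day 7 also held 2 cells of prefix b1, which entered no comparison in the text. Their pluripotency scores were 4.907 and 3.839, both above the highest score of the 54 day 0 cells of b2 (0.8301), and this signal in cells outside the comparison is why they are given here. The same cells also held matrix transcripts: their matrix scores were 3.38 and 2.399, with Dppa5a at 6247 and 4162 TPM, Col1a1 at 202.3 and 114.4 TPM and Col1a2 at 234.1 and 195.2 TPM. None of the 49 b2 cells above the pluripotency gap reached the lower of these values in Col1a1, Col1a2 or matrix score, and the highest matrix score among those 49 was 1.682. Col12a1 was at 89.34 and 0 TPM, Cav1 at 10.62 and 0 TPM and Cdh1 at 2.56 and 49.11 TPM. With 0.9697 and 1.263 M counts both cells were shallower than the median b2 cell, and their part in any difference between prefixes was not tested.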

How the results depend on the processing

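Day 7 against day 0 gave 794 genes higher and 673 lower. As calls under the 17 alternatives had to follow the ratio within b2, none of these could be called the other way. The count moved by over 1.5 times with at least 10 CPM in 1 set (245 higher, 318 lower), with all 10 sets, which adds the 2 day 7 cells and 5 day 5 cells of b1 (160 and 192), with DESeq2 (1370 and 1480, with a median log2 shift of −0.19 over all genes) and with limma on log2(mean TPM + 1) (505 and 66). The replicate block on the prefix also moved the count by over 1.5 times, to 177 and 255, of which 176 and 255 were among the calls above. The labels do not say that a prefix marks a shared source, so the block was not the main design. Under the block 20 of 30 pluripotency genes, 2 of 29 epithelial genes and 15 of 30 matrix proteins were called, and all 10 S phase calls were lost. The block gave 9 falls in place of 17 among mesenchymal surface genes, 7 in place of 12 among matrix enzymes, 3 in place of 6 among mesenchymal transcription factors, 5 rises in place of 8 among germline genes and 1 in place of 6 among DNA methylation genes. Leaving out 1 set gave 481 to 886 higher and 429 to 800 lower. Both counts moved by over 1.5 times without day 3 b1 (505 and 432) and without day 3 b2 (481 and 429). The fitted log2 fold change of Ifit1 ran from −9.30 to 2.49, turning without day 0 b2. Other filters, scalings and cell choices, and days 0, 3 and 7 alone, kept both counts within 1.5 times. Of the 4 markers, Cav1, Col12a1 and Cdh1 lost their calls with all 10 sets (adjusted p = 0.194, 0.66 and 0.103), and Dppa5a and Cdh1 with limma (0.151 and 0.156). The median pluripotency score was higher at day 7 by 4.11 with a pseudocount of 1 and by 6.35 with 0.1, and the median matrix score, 3.33 at day 0 and 0.63 at day 7 with a pseudocount of 1, differed by −4.20 with 0.1. Shares of cells depended on the detection limit: of 249 genes, the share left its interval for 46 at day 0 and 42 at day 7 with a TPM of 5 or more, for 64 and 66 with any count, and for 5 and 11 when each cell was thinned to 300000 counts. The cause of these shifts was not tested.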
